A study of Arabidopsis thaliana with 3 samples.

Results

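The 4 nuclear genes for the small subunit of Rubisco, RBCS1A (AT1G67090), RBCS1B (AT5G38430), RBCS2B (AT5G38420) and RBCS3B (AT5G38410), were examined in sperm cells of Arabidopsis thaliana. They were found by locus identifier, and all 4 are among the 33602 transcripts listed, 1 per locus. The family was chosen by its sperm values, in which RBCS3B stood out, so its levels are given as a description with no test. Sperm cells are the male gametes inside the pollen grain, and here they came from wild-type Col-0 plants by fluorescence-activated sorting. Their RNA was sequenced after Smart-seq2, which makes cDNA from few cells by priming on poly(A) tails. The labels give 3 sperm libraries and no second condition, and the table holds 1 sperm value per transcript, the authors' mean over the libraries. No value below therefore has an SD or a p. The unit is TPM, in which reads are corrected for transcript length and scaled so that each column sums to 1000000, and genes of different length can be compared. The read depth is unknown and no counting error can be given. A TPM value is a share of the RNA and not an amount per cell. The other value columns of the table were not used here.

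Rubisco fixes carbon dioxide in the first step of the Calvin cycle. The large subunit is made inside the chloroplast from the rbcL gene of the chloroplast genome, while the small subunit is made in the cytosol from nuclear RBCS genes and is imported. RBCS genes are known for their strong, light-dependent expression in leaves. RBCS1B, RBCS2B and RBCS3B lie beside each other on chromosome 5 and encode near-identical proteins, and RBCS1A lies alone on chromosome 1.

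RBCS3B was listed at 794.7 TPM, or 1 in every 1258 transcripts. It ranked 110 of the 33602 transcripts and 108 among those of the nuclear genome, within the top 0.327% of the column. The vacuolar proton pump subunit gene AVA-P2 stood next above it at 796.98 TPM, and AT4G38940, which has no symbol in the reference table, next below it at 776.8 TPM. The level of RBCS3B was thus that of abundant sperm transcripts, although far below the leading sperm markers PCR11 at 16145 TPM and TIP5;1 at 9815 TPM.

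**Figure D1:**
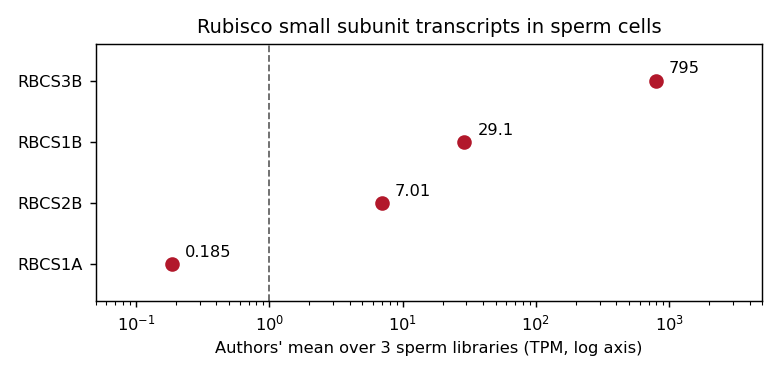
The authors' mean TPM over 3 sperm libraries (horizontal log axis) is plotted for each of the 4 small subunit genes, with the dashed line at 1 TPM. RBCS3B at 795 TPM lies far to the right, RBCS1B and RBCS2B lie between 7 and 30 TPM, and RBCS1A lies below 1 TPM at 0.185 TPM.

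RBCS1B was listed at 29.1 TPM, at rank 1774. RBCS2B was listed at 7.01 TPM, at rank 3739. RBCS1A was the lowest of the family in sperm at 0.185 TPM and rank 11170. The order of the listed levels was therefore RBCS3B, RBCS1B, RBCS2B and RBCS1A. Whether neighbours in this order differ by more than the spread between libraries cannot be read from a column of means.

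RBCS3B made up 95.6% of the summed small subunit TPM of 830.98. RBCS1B held 3.50% of it, RBCS2B 0.844% and RBCS1A 0.0223%. The listed level of RBCS3B was 27.3 times that of RBCS1B and 113 times that of RBCS2B. On the log2 scale with 1 TPM added, RBCS3B exceeded RBCS1B by 4.72, RBCS2B by 6.63 and RBCS1A by 9.39. The last difference depends on the amount added, since RBCS1A lies below 1 TPM, and it was 11.44 with 0.1 TPM added.

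The division among the chromosome 5 genes may be less certain than their sum. Short reads from similar copies can fit more than 1 gene. How similar these transcripts are and how shared reads were assigned were not examined here. The value for the 3 genes together was 830.8 TPM, of which RBCS1B and RBCS2B gave 36.1 TPM. The transcript listed for RBCS3B is its isoform 3, a suffix carried by 325 (0.967%) of the listed transcripts, whereas the other small subunit genes are listed by isoform 1, as are 93.8% of all transcripts. The handling of reads from other RBCS3B isoforms was not examined.

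The digits of the means hold a little information on the single libraries. Multiplied by 3, all 2424 means between 10 and 100 TPM came within 1.65 units of the last decimal the table writes of a number with at most 5 decimals, as sums of 3 values with 6 significant digits would be. Multiplied by 1, with the tolerance scaled to match (0.55 units), 810 of them (33.4%) did so. For RBCS3B the sum of the libraries was 2384.011 TPM, with 3 decimals. With 6 digits per value, a library above 0 and below 100 TPM would have left 4 or more decimals. The exceptions are last digits that are 0 or that cancel in the sum. RBCS3B was 1 of 572 with 3 decimals among the 679 transcripts between 100 and 1000 TPM, while 51 had 4. A single value of 6 digits cannot hold the sum of 2384.011 TPM, so more than 1 library was above 0. A library at exactly 0 leaves no trace, so whether all 3 were above 0 cannot be told from the digits.

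For RBCS1A the 3 libraries summed to 0.556 TPM with 7 decimals, which places at least 1 library below 0.1 TPM. At least 1 other library was then at or above 0.228 TPM, so the libraries differed by 2.28 times or more for this gene. For RBCS3B, RBCS1B (sum 87.3 TPM, 4 decimals) and RBCS2B (sum 21.0 TPM, 5 decimals) the digits gave no such upper bound. There they put the lowest library no lower than the means already do.

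**Figure D2:**
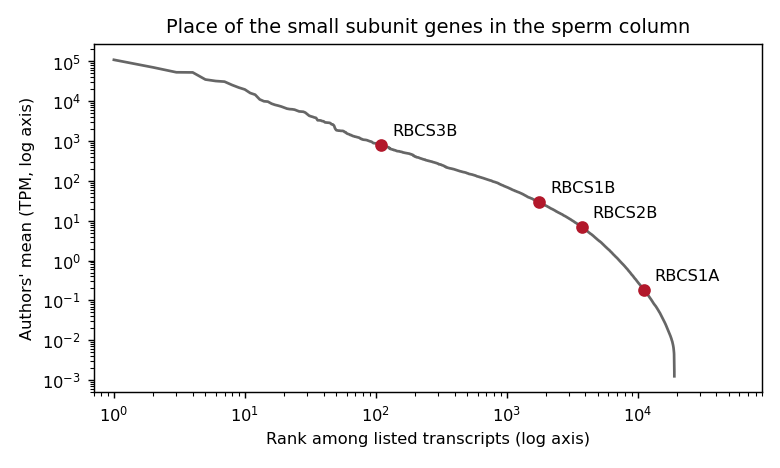
The grey line gives the authors' mean TPM (vertical log axis) of every sperm transcript at or above 0.001 TPM against its rank (horizontal log axis), and the red points are the 4 small subunit genes. RBCS3B sits at rank 110 on the upper part of the curve, and RBCS1A at rank 11170 lies where the levels are below 1 TPM.

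The partner subunit and the factors that build Rubisco were listed below 1 TPM. The large subunit gene rbcL (ATCG00490) was at 0.0134 TPM. Chloroplast transcripts mostly lack the poly(A) tails on which the libraries were primed, so this value and that of RBCS3B are not measured alike. None of the 12 nuclear genes for Rubisco assembly and activation reached 1 TPM (0 of 12), beside 21.7% of all listed transcripts. In this list 1 gene (8.33%) was at 0, beside 43.1% of all listed transcripts. The list median was 0.0154 TPM, beside 0.0209 TPM for the whole column. The highest was CPN20, the co-chaperonin gene of the chloroplast chaperonin, at 0.962 TPM, followed by LSMT-L, a gene for a protein methyltransferase of chloroplasts, at 0.301 TPM. RCA, which encodes the activase that frees the catalytic site of Rubisco, was at 0.0104 TPM. RAF2 (AT5G51110), an assembly factor gene, was listed at 0.

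Genes of the other Calvin cycle enzymes were mostly below 1 TPM too, as were most of all listed transcripts. Of the 15 genes, 2 (13.3%) reached 1 TPM and 4 (26.7%) had a listed value of 0, beside 21.7% and 43.1% of all listed transcripts. The median was 0.0225 TPM, beside 0.0209 TPM for the whole column. RPE, the gene for ribulose-phosphate 3-epimerase, was at 59.5 TPM, and FBA2, a plastid fructose-bisphosphate aldolase gene, was at 5.14 TPM. RPI3 (AT3G04790), a ribose-5-phosphate isomerase gene, was the highest of the others at 0.960 TPM. PRK, whose product makes the substrate that Rubisco carboxylates, was listed at 0, as were GAPB, FBA1 and the plastid triose phosphate isomerase gene PDTPI.

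Genes of the light reactions were also mostly listed below 1 TPM, again as were most of all listed transcripts. Of 15 light-harvesting genes, 1 (6.67%) was at or above 1 TPM, beside 21.7% of all listed transcripts. It was LHCB3, an antenna protein gene of photosystem II, at 4.95 TPM. LHCB6 was the next at 0.504 TPM and LHCB2.1 was listed at 0. The list median was 0.0918 TPM, beside 0.0209 TPM for the whole column. Of 12 nuclear genes for photosystem subunits, electron carriers and the chloroplast ATP synthase, 0 reached 1 TPM, beside 21.7% of all listed transcripts. Their median was 0.0404 TPM, with the photosystem I gene PSAH2 highest at 0.317 TPM and the ATP synthase gene ATPC1 listed at 0.

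Over these 4 lists, 3 of 54 genes were at or above 1 TPM, against 21.7% of all listed transcripts. Above 0 were 47 of the 54, against 56.9% of all listed transcripts, and the median of the 54 was 0.0429 TPM beside 0.0209 TPM for the whole column. Of the small subunit genes, 3 of 4 were at or above 1 TPM, but those values chose the family and nothing is read from that count. The 4 small subunit genes summed to 830.98 TPM and the 54 other genes to 76.6 TPM. RBCS3B alone was listed at 13.3 times the level of RPE, the highest of the 54. This contrast rests on the RBCS3B value by which the family was chosen, and there are no replicate values, so it has no test.

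**Figure D3:**
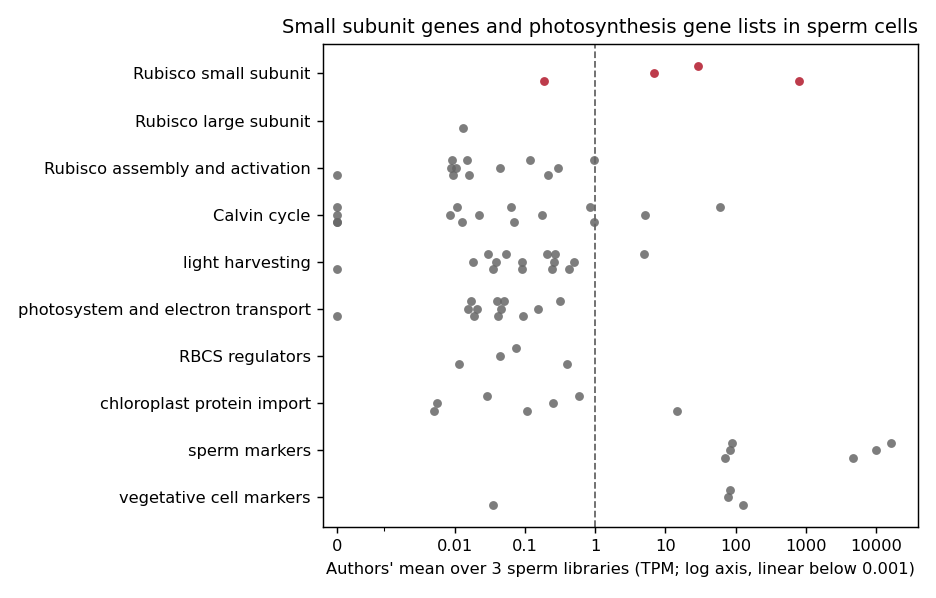
Each point is 1 gene, placed by the authors' mean sperm TPM (horizontal axis, logarithmic above 0.001 TPM and linear below it), with the small subunit genes in red in the top row and the other lists in grey below; the dashed line marks 1 TPM. RBCS3B at 795 TPM lies among the sperm markers, which run between 71.8 and 16145 TPM. The 3 vegetative cell markers right of the line, at up to 127 TPM, lie within that range too. Of the 54 genes in the assembly, Calvin cycle, light-harvesting and photosystem rows, 51 lie left of the line.

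Of 4 genes listed here as possible regulators of RBCS transcription, 0 were at or above 1 TPM, beside 21.7% of all listed transcripts. Whether any of them acts on RBCS3B was not tested. All 4 were above 0, beside 56.9% of all listed transcripts, and their median was 0.0594 TPM, beside 0.0209 TPM for the whole column. HY5, a light-signalling bZIP factor gene, was at 0.398 TPM, GBF1, a G-box binding factor gene, at 0.0740 TPM and GLK2, a gene for a regulator of chloroplast development, at 0.0449 TPM. GLK1 was the lowest of the 4 at 0.0115 TPM. Of 7 genes for the chloroplast protein import machinery, through which the small subunit enters the organelle, 1 (14.3%) was at or above 1 TPM, beside 21.7% of all listed transcripts. This was the receptor gene TOC159 at 14.7 TPM. The receptor gene TOC34 was next at 0.594 TPM, and TOC75-III, which encodes the outer membrane channel, was at 0.00507 TPM. All 7 import genes were above 0, beside 56.9% of all listed transcripts. Their median was 0.109 TPM, beside 0.0209 TPM for the whole column.

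RBCS3B and RBCS1B were listed well above the loci around the cluster, and RBCS2B was close to the highest of them. Of the 10 listed loci that flank the cluster on chromosome 5, 5 on each side, 1 reached 1 TPM and 3 had a listed value of 0, beside 21.7% and 43.1% of all listed transcripts. The exception was SPH8, beside RBCS1B, at 4.21 TPM. AT5G38400, the listed locus next to RBCS3B, was at 0.213 TPM. Among listed loci the order along the chromosome is RBCS3B, RBCS2B and RBCS1B, so the lowest of the 3 lies between the others.

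Around RBCS1A on chromosome 1, 3 of the 10 flanking loci reached 1 TPM and 3 had a listed value of 0, both near the shares over all transcripts. DIN9 was at 181.7 TPM, AT1G67050 at 17.3 TPM and AT1G67120 at 2.58 TPM. The direct neighbours of RBCS1A were low, with ABA4, a carotenoid pathway gene, at 0.0868 TPM and LBD40 at 0.0156 TPM.

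**Figure D4:**
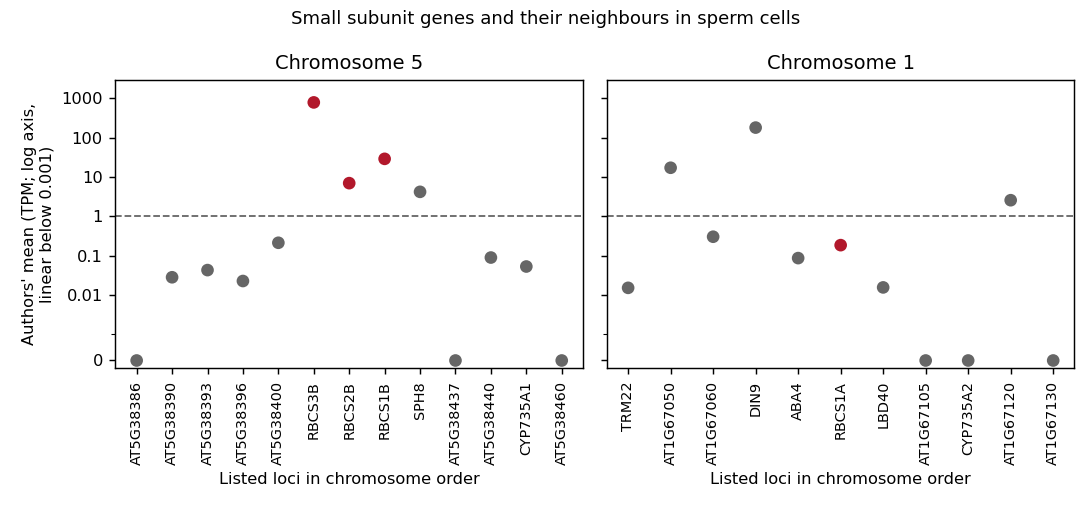
Listed loci are shown in chromosome order (horizontal axis, not to distance) with the authors' mean sperm TPM (vertical axis, logarithmic above 0.001 TPM and linear below it), for the chromosome 5 cluster on the left and RBCS1A on the right, with small subunit genes in red and the dashed line at 1 TPM. RBCS3B, RBCS2B and RBCS1B stand at 795, 7.01 and 29.1 TPM above flanking loci of at most 4.21 TPM.

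Markers of other cells that a sperm preparation could hold were set beside these values. All 6 sperm markers were at or above 71.8 TPM. Besides PCR11 and TIP5;1 these were the male gamete histone H3 gene HTR10 at 4750 TPM, the gamete fusogen gene HAP2 at 87.9 TPM, the germline MYB factor gene DUO1 at 82.3 TPM and the gamete adhesion gene GEX2 at 71.8 TPM. Of 4 vegetative cell markers, 3 were at or above 1 TPM, namely the arabinogalactan protein genes AGP6 at 127 TPM and AGP11 at 83.0 TPM and the pectin methylesterase gene VGD1 at 78.9 TPM, and VEX1 was at 0.0350 TPM. The 4 markers summed to 289.2 TPM. AGP6, AGP11 and VGD1 were within the range of the sperm markers, at levels like those of HAP2, DUO1 and GEX2. RBCS3B was listed above each of the 4 vegetative cell markers, and the part of vegetative cell RNA in its value was not tested. The 4 leaf mesophyll markers, RCA, LHCA1, LHCB2.1 and LHCB1.1, were between 0 and 0.245 TPM, and RBCS1A was at 0.185 TPM. All 4 markers also belong to the photosynthesis lists above, so they add no further genes. In those lists 3 of 54 genes reached 1 TPM, beside 21.7% of all listed transcripts. They were RPE at 59.5 TPM, FBA2 at 5.14 TPM and LHCB3 at 4.95 TPM. The tapetum markers A9 and AMS were both listed at 0.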

How the data were processed

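The deposited table gives TPM values that the authors made from 3 Smart-seq2 libraries of sorted sperm cells, as 1 mean. Per the submitters' processing notes, kallisto 0.43.1, STAR 2.5.2a, Trim Galore 0.4.1, bedtools, SAMtools and the TAIR10 build were used. The roles of these tools, the annotation and the filters were not given in the sources used here. A further 13 value columns, named for tissues outside the samples described here, were not used. Levels, ranks, shares, list counts at a threshold of 1 TPM and log2 differences with 1 TPM added were computed in Python 3.11.15 with pandas 2.3.3. With 1 column of means no test, interval or detection limit was possible. The decimals of means multiplied by 3 bound single libraries, if library values had 6 significant digits. Names and gene order came from RefSeq (TAIR10.1). All 82 list genes were in the table, and for 69 the reference held the name used. For the other 13, among them rbcL, RAF2 and RPI3, it rests on the locus. The genes named were the family, every list gene at or above 1 TPM, the highest and lowest of the other list genes, and 5 flanking loci per side, shown in a plot. A few others, including those next in rank, were named after their values were seen. The family and lists were chosen with earlier results of these data known. Sequences were not used here.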

Additional observations from a re-analysis of the deposited data

How the results depend on the processing

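Of 38 values computed under another setting, 28 stayed close to the value given and 10 moved further. No sign could change, because levels, shares and counts are never negative and both genes of a difference had the same amount added. Each rescaling multiplies every level it keeps by the same factor, so whether a level stayed close followed from that factor. Close meant within 1.5 times for levels, shares and counts, and within 0.585, the log2 of 1.5, for log2 differences. Rescaling without the 10 most abundant transcripts multiplied every other level by 1.83, which by construction keeps the order of the 4 genes and their ratios. It gave 1455 TPM for RBCS3B, 53.3 TPM for RBCS1B, 12.8 TPM for RBCS2B and 0.340 TPM for RBCS1A. It also put 1 in place of 0 Rubisco assembly genes, 4 in place of 2 Calvin cycle genes and 2 in place of 1 import genes at or above 1 TPM. At 5 TPM, 0 in place of 1 light-harvesting genes passed. The log2 difference of RBCS3B and RBCS1A was 11.44 with 0.1 TPM added and 7.27 with 5 TPM added, in place of 9.39. Rescaling without the 279 organellar transcripts moved levels by a factor of 1.0029 only. No paired analysis was possible because the labels give 1 group, and the deposited values have 1 mean for it. Leaving out each library was not run for the same reason. Depth is unknown, so values under 1 TPM do not show absence.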
